A study of Homo sapiens with 18 samples.

Results

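The comparison described here is that of HCC1395 cells given *PART1* GapmeR 2 with HCC1395 cells given the negative control GapmeR. Its members are the transcript clusters with a gene symbol in the platform's table, which were 16098 of the 53617 on the array. HCC1395 is an established triple-negative breast cancer cell line, a tumor type without estrogen and progesterone receptors or *ERBB2* amplification. Cells were exposed to a GapmeR for 48 h, and Affymetrix Human Gene 2.0 ST arrays were run with their total RNA, 3 for the control, 3 for GapmeR 1 and 3 for GapmeR 2. The series has 18 arrays in all, and on the other 9 HCC1806, another triple-negative line, was given the same 3 GapmeRs. The control cells also received an oligonucleotide, one not directed at *PART1*, so that every group carried a GapmeR and cells without any were not compared. Each line stands for itself and is no replicate of a tumor type. The labels number the replicates of these arrays without saying whether they were separate cultures, so the p-values may rest on technical spread alone.

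A GapmeR is a short antisense oligonucleotide with modified ends and a central stretch of DNA. It pairs with its target RNA, and RNase H cuts the RNA of the hybrid. *PART1* is a long non-coding RNA first described in prostate as a transcript regulated by androgens. Long non-coding RNAs in the cytoplasm can bind miRNAs, which are short RNAs that pair through their seed, bases 2 to 8, with messenger RNAs and lower their translation or stability. The question of the comparison is which transcripts differ once *PART1* is targeted in HCC1395 cells.

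The values are the deposited log2 signals, so a difference of 1 is a 2-fold change. On the 9 arrays the medians over all transcript clusters were 4.05 to 4.10, and their mean of 4.08 is used below as a line between brighter and dimmer transcript clusters. Arrays of the same group correlated at 0.9836 to 0.9875 over all transcript clusters, and arrays of different groups at 0.9824 to 0.9876. The first GapmeR 2 array gave the lowest value of each kind. These were with the second GapmeR 2 array and with the third control array. The epithelial and basal keratins *KRT14*, *KRT18*, *KRT8* and *KRT5* had control means of 7.63, 7.11, 5.60 and 5.28, and the mesenchymal filament *VIM* had 10.28. The hormone receptor genes *ESR1* and *PGR* were under the line at 3.69 and 2.58, and *EPCAM* was at 4.75, while *KRT17*, *CDH1* and *ERBB2* have no symbol in the table used here. Of markers of other cells, 3 of 8 measured leukocyte markers and 6 of 8 endothelial markers were under the line, and 3 fibroblast markers were over it. The summed leukocyte signal was 8.02 to 8.12 in control arrays and 7.95 to 7.97 in GapmeR 2 arrays on the log2 scale. For the fibroblast markers it was 7.42 to 7.70 and 7.11 to 7.78, and for the endothelial markers 8.54 to 8.66 and 8.44 to 8.62. The part of other cells in the results below was not tested, and in RNA from a whole culture a smaller number of cells of one kind and less RNA per cell cannot be told apart.

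*PART1* was lower after GapmeR 2. Its transcript cluster, 16985067, had signals of 5.45, 5.76 and 5.61 on the control arrays and of 4.86, 5.29 and 4.70 on the GapmeR 2 arrays. Every GapmeR 2 array lay below every control array, the second by the smallest margin. The log2 fold change was -0.66 with a standard error (SE) of 0.20, which is 1.58-fold, an unadjusted p of 0.0092 and an adjusted p of 0.701. The exact two-sided permutation test of these arrays gave p = 0.1, the smallest value that 3 arrays against 3 can give. *PART1* thus fell just short of the fold threshold of 1.6 that the methods use and was past it when GapmeR 2 replicate 2 (-0.83) or control replicate 1 (-0.74) was left out. The GapmeR 1 arrays had 4.93, 4.72 and 5.36, a change of -0.60, and GapmeR 2 minus GapmeR 1 was -0.05 with an SE of 0.20. In HCC1806 cells the signal was 3.88, 3.69 and 3.94 with the control and 4.03, 4.47 and 3.87 with GapmeR 2. All but the 4.47 were under the mean array median of HCC1395, 4.08.

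No transcript cluster with a symbol passed an adjusted p of 0.05 for GapmeR 2 against control by limma with Benjamini-Hochberg adjustment over all 53617. The smallest adjusted p was 0.365, that of *SLIT3*. At an unadjusted p under 0.05 there were 920 transcript clusters, 5.71% of the 16098, with 433 higher (2.69%) and 487 lower (3.03%). The threshold of the methods, a change of 1.6-fold in either direction with an unadjusted p under 0.05, was passed by 56 transcript clusters of 56 genes, 0.348% of the 16098. Of these, 27 were higher (0.168%) and 29 lower (0.18%). "Past the threshold" refers below to these 56, and none of them passed the adjusted test. Over all 53617 transcript clusters, 570 were past it (1.06%), and most of them have no name here. The control and GapmeR 2 arrays did not overlap in 47 of the 56 and in 13.5% of all 16098. The 56 were chosen on these same arrays, so little overlap among them follows from the choice and is no further support. The brighter and dimmer genes named by rank below were also chosen for having no overlap.

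The transcript clusters past the threshold were mostly dim, and miRNA genes made up the largest class of them. Of the 27 higher, 7 had a mean signal at or above the line of 4.08, and of the 29 lower, 10 had. In the dimmest quintile of the 16098 by signal 0.901% were past the threshold, in the next quintiles 0.404% and 0.311%, and in each of the 2 brightest quintiles 0.0621%. There were 23 miRNA genes past it, 13 higher and 10 lower, which was 1.86% of 1236, while 20 protein-coding genes were past it, 8 higher and 12 lower, 0.158% of 12694. The remainder were 6 long non-coding RNA genes, 6 transcribed pseudogenes and 1 pseudogene of a non-coding RNA. At or above the line, 6 of 417 miRNA genes (1.44%) and 7 of 9645 protein-coding genes (0.0726%) were past the threshold. Under it the counts were 17 of 819 (2.08%) and 13 of 3049 (0.426%). The direction of the small changes went with signal. In the brightest quintile 110 transcript clusters were higher and 47 lower at an unadjusted p under 0.05, and in the dimmest 81 were higher and 118 lower.

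**Figure D1:**
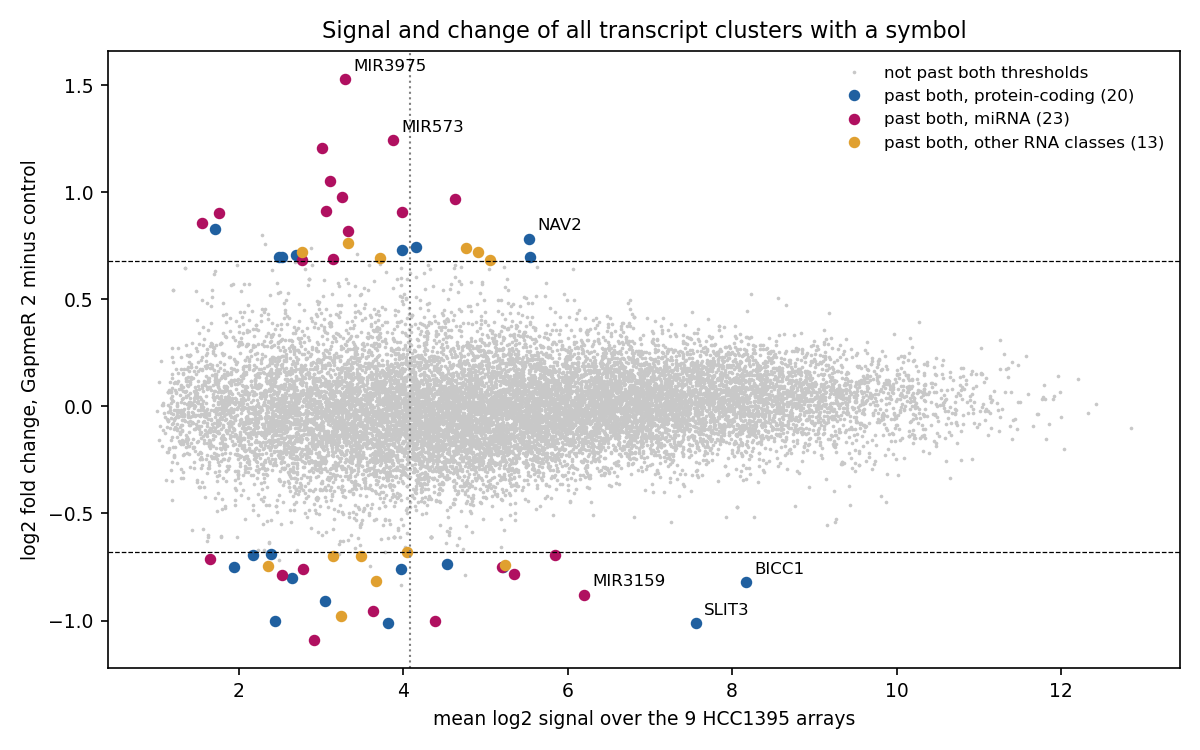
Log2 fold change of GapmeR 2 over control (vertical axis) against the mean log2 signal over the 9 HCC1395 arrays (horizontal axis) for the 16098 transcript clusters with a symbol. Dashed lines mark 1.6-fold, the dotted line marks the mean array median of 4.08, and the coloured points are the 20 protein-coding, 23 miRNA and 13 other genes past the threshold, of which *SLIT3* and *BICC1* are the brightest.

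Mature sequences of miRNA genes at the ends of the ranking are shown because miRNA genes led the list and because a seed decides which messengers a miRNA can pair with. The 12 sequences come from RefSeq (GRCh38.p14) and belong to 9 of the named miRNA genes past the threshold. Each is written 5′ to 3′ with its seed, bases 2 to 8, in capitals, and those of the higher genes come first.
hsa-miR-3975: uGAGGCUAaugcacuacuucac
hsa-miR-573: cUGAAGUGauguguaacugaucag
hsa-miR-3134: uGAUGGAUaaaagacuacauauu
hsa-miR-626: aGCUGUCUgaaaaugucuu
hsa-miR-520c-5p: cUCUAGAGggaagcacuuucug
hsa-miR-520c-3p: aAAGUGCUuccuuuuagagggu
hsa-miR-548l: aAAAGUAUuugcggguuuuguc
hsa-miR-4716-5p: uCCAUGUUuccuucccccuucu
hsa-miR-4716-3p: aAGGGGGAaggaaacauggaga
hsa-miR-501-5p: aAUCCUUUgucccugggugaga
hsa-miR-501-3p: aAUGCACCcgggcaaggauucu
hsa-miR-3159: uAGGAUUAcaagugucggccac

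Of the 23 miRNA genes past the threshold, 19 matched the RefSeq table, with 25 mature sequences, and no seed occurred in more than 1 of them. The array reads RNA from the locus of the miRNA gene, so a signal is that of any transcript covering the probes and no measure of the mature miRNA.

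*MIR3975* had the largest change of all, 2.89-fold higher. Its signals were 2.41, 3.01 and 1.79 on the control arrays and 4.33, 3.95 and 3.51 on the GapmeR 2 arrays. The groups did not overlap, but the control arrays spread widely and were all dim. The log2 fold change was 1.53 with an SE of 0.30, an unadjusted p of 0.000577 and an adjusted p of 0.659. The gene lies within *GALNT1*, which encodes an enzyme of mucin-type glycosylation, with the mature sequence at chr18:35591782-35591803 on the forward strand. The host itself, at a signal of 9.25, had a log2 fold change of 0.06 with an SE of 0.10.

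*MIR573* was next, 2.36-fold higher. It had signals of 3.66, 3.37 and 2.91 with the control GapmeR and of 4.55, 4.62 and 4.49 with GapmeR 2. The GapmeR 2 arrays lay close together and above every control array. Its log2 fold change was 1.24 (SE 0.25) with an unadjusted p of 0.000755. Its mature sequence is at chr4:24520252-24520275 on the reverse strand.

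*MIR3134*, *MIR626*, *MIR520C* and *MIR548L* followed among the dim genes whose groups did not overlap, with log2 fold changes of 1.20, 1.05, 0.91 and 0.91. *MIR520C* was the steadiest of them, with 2.74, 2.90 and 2.45 on the control arrays against 3.56, 3.49 and 3.77. No value of a group reached the range of the other group, and the SE of 0.14 gave an unadjusted p of 8.97e-05. *MIR520C* belongs to a cluster of closely related miRNA genes on chromosome 19, where RNA of one copy may reach probes of another. *MIR626* had 2.67, 2.67 and 2.27 against 3.83, 3.38 and 3.54, with the groups apart, and lies within *MGA*, a transcription factor gene whose own change was 0.17 (SE 0.11). *MIR3134* had control signals of 2.58, 1.71 and 3.14 and GapmeR 2 signals of 3.83, 3.44 and 3.77, so its change rested in part on a low second control array. *ANKRD28*, one of the genes it lies within, changed by 0.10 with an SE of 0.09.

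*MIR548L* and *MIR548AA1* are copies of the same large family, whose hairpins derive from a transposable element and resemble each other, so that their signals may not be separate. *MIR548AA1* was the only miRNA gene among the 7 brighter ones that were higher. It had 4.37, 4.44 and 3.54 with the control and 5.47, 4.93 and 4.84 with GapmeR 2. The groups were apart, with the third control array the lowest, and without that array the log2 fold change went from 0.97 (SE 0.25) to 0.68, just under the threshold. *MIR548L* had 3.59, 3.48 and 3.13 against 4.24, 4.17 and 4.52, again without overlap. Among 54 transcript clusters of *MIR548* genes, 9 were higher and 1 lower at an unadjusted p under 0.05, against 2.69% higher and 3.03% lower of all members. Both transcript clusters of *MIR548Q* hold identical values and count as 2 of the 9. Transcript clusters with identical values of *MIR548AM*, *MIR548A1* and *MIR548I1* also enter the 54. As for *MIR548AA1*, the third control array was the lowest control for *MIR548L*, *MIR548H3*, *MIR548T*, *MIR548K* and *MIR548Q*, but not for *MIR548H1* and *MIR548J*. How far the higher values of the family rest on this 1 array was not tested. Other arrays mattered too, and *MIR548Q* went from 0.54 to 0.29 without GapmeR 2 replicate 3. The family's median log2 fold change was 0.25, beside -0.007 for all 16098, at a median signal of 1.83. Of all 1236 miRNA transcript clusters 50 were higher and 58 lower at an unadjusted p under 0.05, 8.74% beside 18.5% of the *MIR548* ones. With GapmeR 1, against the same control arrays, *MIR548AA1* and *MIR548L* were at 0.57 and 0.83.

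On the lower side *MIR4716* had the largest change of any member, 2.13-fold. Its signals were 2.97, 3.13 and 3.82 with the control and 2.41, 2.08 and 2.16 with GapmeR 2. The groups did not overlap, and the GapmeR 1 arrays at 3.47, 2.61 and 3.57 lay among the control arrays. The change was -1.09 (SE 0.28) with an unadjusted p of 0.00374. It lies within *GALK2*, which encodes a galactokinase family enzyme and changed by 0.04 with an SE of 0.12.

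*MIR3159* was the brightest miRNA gene past the threshold. It had 6.49, 6.80 and 6.48 on the control arrays and 5.43, 5.94 and 5.76 on the GapmeR 2 arrays. The lowest control array was still above the highest GapmeR 2 array, and the call held whichever array was left out. Its change was -0.88 on the log2 scale (SE 0.17) with an unadjusted p of 0.000429, and the mature sequence is at chr11:18387796-18387817 on the forward strand.

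*MIR4469* and *MIR596* were lower too and are at or above the line. *MIR4469* had 4.95, 4.82 and 4.71 against 3.33, 3.74 and 4.40, with tight control arrays and widely spread GapmeR 2 arrays. Its log2 fold change of -1.0 (SE 0.34) was -0.76 and no longer past the threshold without GapmeR 2 replicate 1. *MIR596* had 5.59, 6.08 and 5.71 against 5.06, 4.65 and 5.32, apart from each other by a small margin. Its log2 fold change of -0.78 (SE 0.21) was -0.64 without control replicate 2 and -0.60 without GapmeR 2 replicate 2, both under the fold threshold. *MIR501*, among the dim genes, had 4.44, 3.85 and 3.99 against 3.65, 2.61 and 3.16, a log2 fold change of -0.95 (SE 0.29) without overlap. Of the 23 miRNA genes past the threshold, 18 lie within another annotated gene and 10 of these have a host with a value here. The hosts' changes ran from -0.29 to 0.18, and 1 of 10 had an unadjusted p under 0.05.

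**Figure D2:**
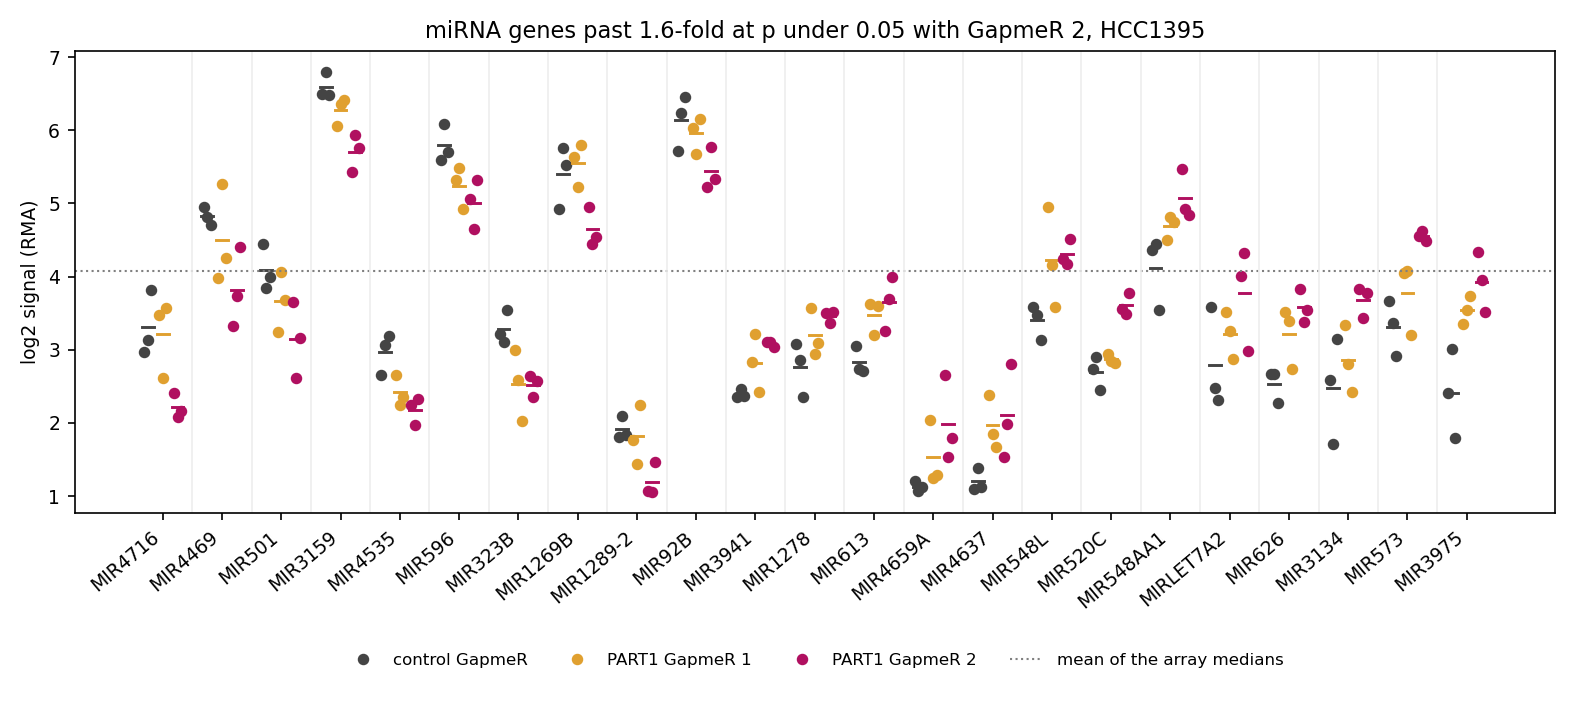
Log2 signal on each of the 9 HCC1395 arrays for the 23 miRNA genes past the threshold, ordered by log2 fold change, with points for arrays, short lines for group means and a dotted line at the mean array median of 4.08. Most of the higher genes on the right lie under that line on the control arrays, and *MIR3159* and *MIR92B* on the left are the brightest.

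Among protein-coding genes *SLIT3* stood out by its signal, its fold change and its p-value. *SLIT3* is a secreted guidance ligand that binds ROBO receptors and steers axons and other migrating cells. Its signals were 8.08, 8.15 and 8.19 on the control arrays and 6.90, 7.17 and 7.32 on the GapmeR 2 arrays. The control arrays were nearly equal and all far above the GapmeR 2 arrays. The log2 fold change was -1.01 with an SE of 0.13, that is 2.02-fold, with an unadjusted p of 1.64e-05 and an adjusted p of 0.365. It was between -1.11 and -0.90 when any of the 6 arrays was left out.

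*BICC1*, an RNA-binding protein that regulates the translation and decay of messenger RNAs, was 1.77-fold lower. It had signals of 8.81, 8.95 and 8.69 with the control and of 7.68, 8.11 and 8.20 with GapmeR 2. The groups were apart, with the first GapmeR 2 array the lowest. The log2 fold change was -0.82 (SE 0.17) with an unadjusted p of 0.000884, and without GapmeR 2 replicate 1 it was -0.66, just under the threshold. The GapmeR 1 arrays were lower still, at 7.45, 7.66 and 7.92.

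*TMCC3*, which encodes a membrane protein of the endoplasmic reticulum, had 4.70, 4.99 and 4.74 against 3.94, 4.37 and 3.92. The GapmeR 1 arrays, at 4.74, 4.69 and 4.70, stayed at the control level. Its log2 fold change was -0.74 (SE 0.14) with an unadjusted p of 0.000571. It was -0.65 without control replicate 2 and, for GapmeR 2, -0.67 without replicate 1 and -0.66 without replicate 3, all just under 1.6-fold. *ZEB2-AS1*, a long non-coding RNA antisense to the gene of the transcription factor *ZEB2*, had 5.60, 5.60 and 5.28 against 4.82, 4.72 and 4.71. The groups were apart, and the change of -0.74 (SE 0.22) kept its call without any array. A second, dimmer transcript cluster of *ZEB2-AS1* changed by -0.27 with an SE of 0.13, and *ZEB2* itself changed by -0.03.

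*KLK5*, a kallikrein serine protease active in the skin barrier, had 5.77, 5.96 and 5.51 against 4.69, 5.52 and 4.79. The second GapmeR 2 array lay within the control range, so the groups overlapped. On the log2 scale the change was -0.75 (SE 0.27) with an unadjusted p of 0.0203. It was -0.64 without control replicate 2, -0.59 without the first GapmeR 2 array and -0.65 without the third, and in each case neither the fold nor the p stayed past its threshold.

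Dim genes that were lower without overlap included *PGLYRP3*, *ARGFX*, *GGT8P* and *KRTAP10-11*. *PGLYRP3*, a peptidoglycan recognition protein of skin and mucosa, had 4.39, 4.30 and 4.19 against 3.29, 3.40 and 3.15. It was the clearest of them, with a log2 fold change of -1.01 (SE 0.17) and an unadjusted p of 0.000158. *ARGFX*, a homeobox gene of the early embryo, had 3.23, 3.41 and 2.77 against 1.81, 1.94 and 2.67, a change of -1.0 (SE 0.24). The lowest control array and the highest GapmeR 2 array nearly met. *GGT8P*, a pseudogene of the gamma-glutamyltransferase family, changed by -0.98 (SE 0.20), and *KRTAP10-11*, a keratin-associated protein of hair with close copies in the genome, by -0.91 (SE 0.19). At such signals the array cannot show whether a gene is expressed at all. These 4 genes kept their call without any of the 6 arrays.

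*NAV2*, a microtubule-associated protein involved in the growth of nerve fibres, led the brighter protein-coding genes that were higher. Its signals were 5.20, 4.93 and 5.11 on the control arrays and 6.17, 5.54 and 5.88 on the GapmeR 2 arrays. The groups were apart, with the second GapmeR 2 array nearest to the controls. The log2 fold change was 0.78 (SE 0.18) with an unadjusted p of 0.00153, and without GapmeR 2 replicate 1 it was 0.63, under the threshold. This transcript cluster, 16736682, is 1 of 3 with the symbol *NAV2*. The brightest of the 3, at a mean signal of 7.24, changed by 0.09 (SE 0.12) and the other by 0.00 (SE 0.17).

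*CHEK2*, a checkpoint kinase of the DNA damage response with partial copies elsewhere in the genome, showed the same split. The transcript cluster past the threshold had 3.65, 3.83 and 3.76 against 4.88, 4.14 and 4.45, which is 1.67-fold higher, with a log2 fold change of 0.74 (SE 0.23). Without GapmeR 2 replicate 1 it was 0.55. The groups did not overlap, but the brighter transcript cluster of *CHEK2*, at a mean signal of 5.83, changed by -0.07 with an SE of 0.21. For both genes the change was thus limited to a transcript cluster other than the brightest. Among the 56 genes past the threshold, 7 have another transcript cluster with the same symbol, and 1 of those other transcript clusters, that of *LINC00312* at 0.50 with an SE of 0.20, had an unadjusted p under 0.05. *LINC00312* was picked for this after its values were seen.

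The other brighter genes that were higher were *MSTO1*, *TOP1P1*, *SMIM2-IT1* and *DLEU2L*. *MSTO1*, a protein of mitochondrial distribution with a near-identical pseudogene, had 5.25, 5.23 and 4.98 against 6.04, 5.52 and 5.99, without overlap. Its change of 0.70 (SE 0.18) was 0.61 without control replicate 3, 0.60 without the first GapmeR 2 array and 0.63 without the third. *TOP1P1*, a processed copy of the topoisomerase gene *TOP1* from which its signal may not be separable, had 4.71, 4.23 and 4.23 against 5.04, 5.36 and 4.95. The GapmeR 2 arrays were all higher, and the change of 0.72 (SE 0.18) was 0.64 without control replicate 2 or 3 and 0.60 without GapmeR 2 replicate 2. *SMIM2-IT1*, a non-coding transcript, had 4.57, 4.22 and 4.43 against 5.42, 5.13 and 4.87, apart from each other. Its change of 0.74 (SE 0.16) was 0.64 without control replicate 2 and 0.60 without GapmeR 2 replicate 1. *DLEU2L*, a copy of the non-coding gene DLEU2, had 4.71, 4.45 and 4.67 against 5.74, 4.72 and 5.43, where the second GapmeR 2 array nearly touched the controls. Its change of 0.68 (SE 0.24) was 0.60 without control replicate 2, 0.46 without the first GapmeR 2 array and 0.62 without the third, each with an unadjusted p over 0.05.

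**Figure D3:**
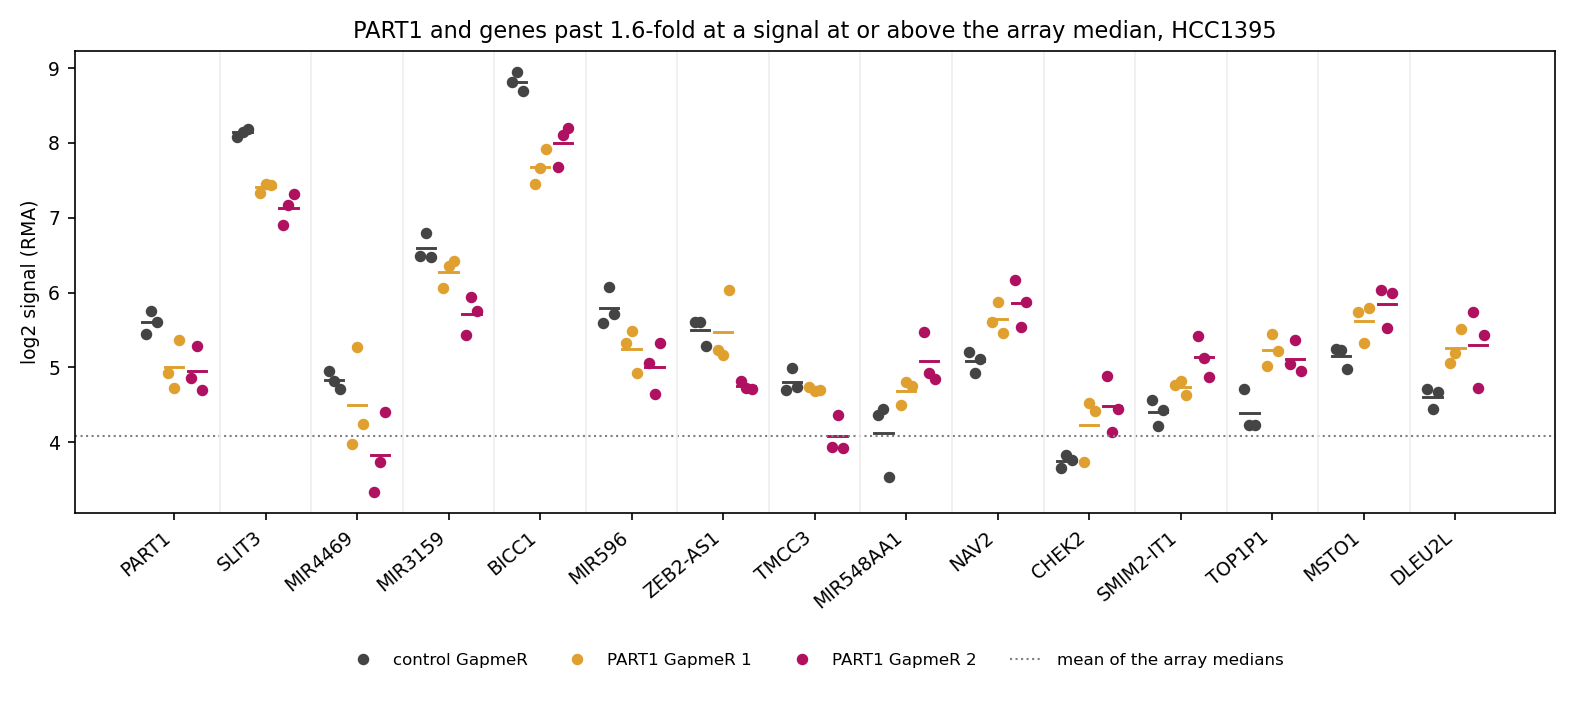
Log2 signal on each of the 9 HCC1395 arrays for *PART1* and for the 14 genes past the threshold that had a mean signal at or above the array median and no overlap between control and GapmeR 2 arrays. Points are arrays, short lines are group means and the dotted line is the mean array median of 4.08. *SLIT3* and *BICC1* are the brightest, and the GapmeR 1 arrays of *TMCC3* lie with the controls.

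The rule for named genes left out 28 other genes past the threshold. The 13 higher among them had log2 fold changes of 0.68 to 0.98 at mean signals of 1.55 to 3.72, and 3 of them overlapped between the groups. The 15 lower had -0.82 to -0.68 at mean signals of 1.64 to 5.84, and 4 overlapped. Described from these, after their values were seen, are *MIR92B*, a copy of the widely expressed miR-92 family, and *MIRLET7A2*, a gene of the let-7 family of growth-restraining miRNAs. *MIR92B* had 5.72, 6.24 and 6.45 against 5.22, 5.77 and 5.34, and the second GapmeR 2 array lay above the first control array. Its change of -0.70 (SE 0.22) was between -0.90 and -0.54 with an array left out and lost its call without control replicate 2 or 3 or GapmeR 2 replicate 1 or 3. *MIRLET7A2* had 3.59, 2.48 and 2.31 against 4.01, 4.32 and 2.98, with the first control array above the third GapmeR 2 array. Its change of 0.98 (SE 0.40) ran from 0.71 to 1.38 and lost its call without control replicate 2 or 3 or GapmeR 2 replicate 1 or 2, while its host *MIR100HG* changed by 0.18 (SE 0.14). Other let-7a genes share the mature sequence of *MIRLET7A2*, and miR-92a resembles miR-92b.

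Across the 56 genes the call often depended on 1 array. All 56 kept their sign when each of the 6 control and GapmeR 2 arrays was left out in turn, and 16 stayed past the threshold each time, 7 higher and 9 lower. The 7 higher were the dim genes *MIR3975*, *MIR573*, *MIR3134*, *MIR626*, *MIR520C*, *MIR548L* and *PRB4*, and the 9 lower were *SLIT3*, *MIR4716*, *PGLYRP3*, *ARGFX*, *GGT8P*, *MIR501*, *KRTAP10-11*, *MIR3159* and *ZEB2-AS1*. The 9 genes whose groups overlapped were all among the 40 that lost the call at least once. *PRB4*, a salivary proline-rich protein gene with close copies, is outside the rule for named genes and was added after its values were seen.

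Gene lists for pathways and cell types were then described by counts. They held 431 measured genes, of which 27 (6.26%) had an unadjusted p under 0.05, 8 higher and 19 lower, beside 5.66% of the 14884 genes with a symbol. In these lists 5 genes were past the threshold, *BICC1*, *KLK5*, *SLIT3*, *PGLYRP3* and *MX2*, and 31 of 36 lists held none. Collagens and laminins and integrins have no member with a symbol here. List medians lay between -0.25 and 0.14, where the median of all 14884 genes was -0.005. Since 5.66% of all genes had an unadjusted p under 0.05, a share of this size within a list is the background.

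The genes of the study's QPCR panel were chosen on these arrays, so their array values are no independent evidence. Of the 11 genes, 7 have a symbol here. The study's QPCR is a separate measurement, by which it reports *ZHX2* lower in both lines and *BICC1* lower in HCC1395. Besides *BICC1* and *KLK5*, *SUPT3H*, a subunit of the SAGA transcription coactivator, had 7.07, 6.94 and 6.80 against 6.50, 6.69 and 6.75, and *CDKAL1*, a transfer RNA modifying enzyme, had 8.53, 8.47 and 8.57 against 8.13, 8.33 and 8.36. Neither overlapped, and their log2 fold changes of -0.29 (SE 0.12) and -0.25 (SE 0.11) had unadjusted p-values of 0.0401 and 0.0426. *ZHX2*, a transcriptional repressor, changed by -0.11 (SE 0.14), and its value turned to 0.03 without GapmeR 2 replicate 1. *GPR89A* and *GPR89B*, near-identical copies whose signals may not be separable, changed by 0.16 (SE 0.12) and 0.17 (SE 0.11).

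*SLIT3* was the only guidance gene past the threshold. Of the 17 measured axon guidance ligands *EFNB3*, a membrane-bound ephrin, also had an unadjusted p under 0.05, with 5.98, 5.79 and 6.17 against 5.38, 5.60 and 5.85 and a log2 fold change of -0.37 (SE 0.16). The groups overlapped there. Its paralogs *SLIT1* and *SLIT2* changed by -0.02 and 0.19. Among the 30 measured guidance receptors the median was -0.12, 9 were above 0, and *PLXNA4*, a semaphorin receptor, and *EPHA4*, an ephrin receptor, were at -0.33 (SE 0.11) and -0.32 (SE 0.12). *PLXNA4* had 4.83, 4.88 and 4.96 against 4.62, 4.41 and 4.67, and *EPHA4* had 5.91, 6.0 and 6.10 against 5.50, 5.71 and 5.84. Both were lower on every GapmeR 2 array. The ROBO receptors that bind *SLIT3* have no symbol here.

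Among the keratins *KRT7* and *KRT5* were lower at an unadjusted p under 0.05. *KRT7*, a keratin of simple epithelia, had 5.0, 5.12 and 4.42 against 4.06, 4.06 and 4.47, with a log2 fold change of -0.65 (SE 0.21) and overlap through the lowest control array. *KRT5*, the basal keratin, had 5.36, 5.15 and 5.33 against 4.60, 4.89 and 5.12, without overlap, and changed by -0.41 (SE 0.17). *KRT8* was at -0.53 (SE 0.25) with an unadjusted p of 0.0591. Of 18 measured keratin and desmosome genes 2 were lower at an unadjusted p under 0.05, and the median was -0.04. *CA12*, a carbonic anhydrase counted with the luminal markers, had 7.46, 7.54 and 7.53 against 6.58, 7.05 and 7.28, lower on every GapmeR 2 array. Its change of -0.54 (SE 0.17) rested on the first of these and was -0.34 without it.

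Of 15 kallikrein proteases, *KLK5* was lower and *KLK2*, an androgen-regulated protease of the prostate, was 0.33 (SE 0.12) higher, with 3.86, 4.04 and 4.25 against 4.31, 4.36 and 4.46. Those groups did not overlap but nearly met. *KLK2* was also the only one of 7 measured androgen response genes with an unadjusted p under 0.05, and the list's median was 0.06.

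Of 16 stemness genes *POU5F1*, the pluripotency factor with many processed copies in the genome, was higher and *TCF4*, a basic helix-loop-helix factor, was lower at an unadjusted p under 0.05. *POU5F1* had 4.49, 4.12 and 3.92 against 4.68, 4.62 and 4.57, a change of 0.45 (SE 0.19). *TCF4* had 7.90, 7.93 and 8.26 against 7.56, 7.55 and 7.92, with overlap, and changed by -0.35 (SE 0.15). *SOX2*, *MYC*, *CD44*, *PROM1* and *NANOG* had unadjusted p-values over 0.05, as did all 18 measured genes of the epithelial-mesenchymal switch, with values from -0.31 for *CLDN7* to 0.55 for *CLDN4*.

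The lists for cell growth and death had no member at an unadjusted p under 0.05. They held 21 genes of DNA replication (median 0.06), 19 of mitosis (median 0.14, with 16 above 0), 4 cell cycle inhibitors and 15 apoptosis regulators (median -0.04). They do not hold every such gene, and *CHEK2* and *KIF15* are described elsewhere in the text. The mitotic kinase *AURKA* and the proliferation marker *MKI67* were at 0.26 and 0.21. The same holds for 12 genes of the *ATF4* response, 7 of the unfolded protein response, 8 heat shock proteins, 11 of cholesterol synthesis (median 0.13), 13 of fatty acid synthesis, 8 subunits of oxidative phosphorylation and 23 regulators of migration and actin. Among 10 p53 targets *GDF15*, a stress-induced cytokine, was 0.36 (SE 0.16) higher, with 4.88, 5.21 and 5.08 against 5.68, 5.41 and 5.16. The third GapmeR 2 array lay within the controls, and without the first the change was 0.23.

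Genes that sense nucleic acids gave no joint pattern. *STING1*, the adaptor of cytosolic DNA sensing, had 6.54, 6.58 and 6.94 against 6.22, 6.32 and 6.54, with the groups meeting at their ends, and changed by -0.33 (SE 0.14), or by -0.20 without control replicate 3. *RNASEH1*, the nuclease through which GapmeRs act, changed by -0.05, and 1 of 17 genes of this list had an unadjusted p under 0.05. Among 17 interferon-stimulated genes only *MX2*, a GTPase that restricts viruses, was past the threshold. It had 3.21, 4.02 and 4.03 against 3.82, 4.82 and 4.82, with overlap, and the change of 0.73 (SE 0.31) was 0.46 without control replicate 1, 0.57 without the second GapmeR 2 array and 0.56 without the third, the p then being over 0.05. *ISG15*, *IFIT1* and *IFI44L* changed by 0.15, -0.14 and 0.20.

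Single members of further lists had an unadjusted p under 0.05. *IL11*, a cytokine of the interleukin-6 family, was at -0.59 (SE 0.19), with 5.12, 4.95 and 5.26 against 4.40, 4.97 and 4.21, where the second GapmeR 2 array lay in the control range. *TIMP1*, an inhibitor of metalloproteinases, was at -0.32 (SE 0.11), with 8.14, 8.27 and 8.26 against 7.96, 7.84 and 7.90, all lower. *BNIP3L*, a mitophagy receptor induced by hypoxia, was at -0.32 (SE 0.13), with 9.95, 10.04 and 10.05 against 9.52, 9.61 and 9.96, where the third GapmeR 2 array reached the controls. In the TGF-beta pathway the signal transducer *SMAD2* was at -0.27 (SE 0.11) and the inhibitor *SMAD6* at 0.39 (SE 0.17), without overlap in either. The WNT receptor *FZD9* was at 0.42 (SE 0.17) with overlapping groups, and at 0.28 without GapmeR 2 replicate 2. *TNRC6A*, a scaffold of miRNA silencing, was at 0.27 (SE 0.11), with 8.04, 8.16 and 8.14 against 8.35, 8.28 and 8.52, and was the only one of 8 genes of the miRNA machinery with such a p. Of the leukocyte markers *CSF1R* was at -0.30 (SE 0.10) and *LYZ* at 0.36 (SE 0.13), in opposite directions.

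**Figure D4:**
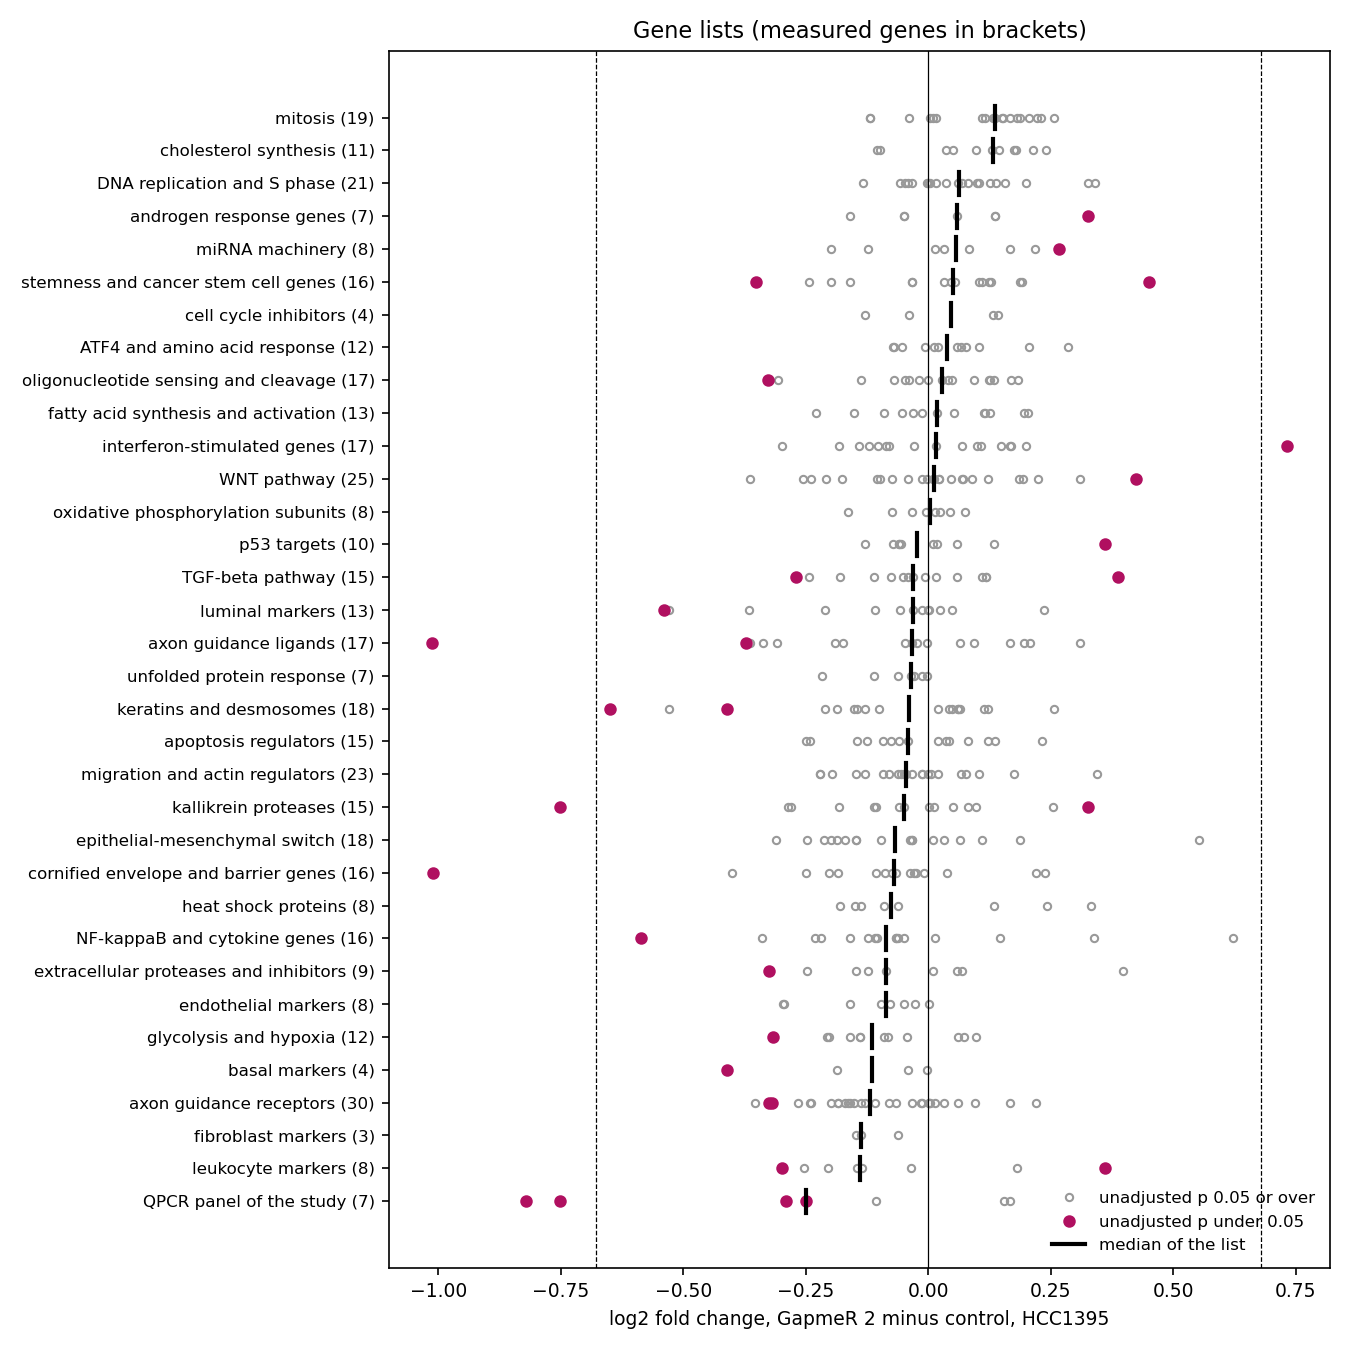
Log2 fold change of GapmeR 2 over control for each measured gene of 34 lists, ordered by the median of the list (black bar), with the number of measured genes in brackets. Filled points have an unadjusted p under 0.05, none of which passed the adjusted test, and dashed lines mark 1.6-fold. All medians lie between -0.25 and 0.14.

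The GapmeRs were then compared with each other in the same fit, since both were measured in HCC1395 cells against the same control arrays. GapmeR 2 minus GapmeR 1 gave no adjusted p under 0.05, the smallest for a transcript cluster with a symbol being 0.736. An unadjusted p under 0.05 was found for 599 of the 16098 (3.72%). At the threshold of the methods 31 differed (0.193%), 16 higher (0.0994%) and 15 lower (0.0932%) with GapmeR 2. Of the 56 genes 20 had an unadjusted p under 0.05 in this contrast, but they were chosen on the GapmeR 2 arrays, which enter it, so nothing is read from that count. The changes of GapmeR 1 had the same sign in 24 of the 27 higher and 27 of the 29 lower genes and were past the threshold in 5 and 6, but the shared control arrays push both comparisons the same way and these counts are given only side by side.

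Among the named genes those with the smallest p-values in that contrast were *SUPT3H*, *MIR520C*, *TMCC3*, *MIR4716* and *LYZ*. *SUPT3H*, at 5.95, 5.74 and 5.89 with GapmeR 1, was far lower there than with GapmeR 2, a difference of 0.79 (SE 0.12) with an unadjusted p of 9.61e-05. *MIR520C* was higher with GapmeR 2 by 0.74 (SE 0.14, unadjusted p 0.000438), its GapmeR 1 arrays being at 2.94, 2.84 and 2.82, and *TMCC3* was lower with GapmeR 2 by 0.63 on the log2 scale (-0.63, SE 0.14, unadjusted p 0.0016). *MIR4716* was at -1.0 (SE 0.28, unadjusted p 0.00605), and *LYZ*, a dim gene, at 0.45 (SE 0.13, unadjusted p 0.00606). *SLIT3* had 7.33, 7.45 and 7.44 with GapmeR 1, a change of -0.74 from control, and its difference between the GapmeRs was -0.28 with an unadjusted p of 0.0541.

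The effect of GapmeR 2 in HCC1395 cells was last set against its effect in HCC1806 cells, which have control arrays of their own. The difference of the effects gave no adjusted p under 0.05, the smallest for a transcript cluster with a symbol being 0.459. There were 841 with an unadjusted p under 0.05 (5.22%), and 254 were also past 1.6-fold (1.58%), 103 higher (0.64%) and 151 lower (0.938%). Of the 56 genes, 38 had an unadjusted p under 0.05 in this contrast, but they were chosen for their change in HCC1395, which enters it. In HCC1806 the change had the same sign for 10 of the 27 higher and 9 of the 29 lower genes. Of the 56, 1 was past the threshold there in the same direction. How often all transcript clusters with a symbol share their sign between the lines, or pass in HCC1806, was not counted. Without that background nothing about opposite or line-specific effects is read from these counts. The gene past the threshold in both lines, *FGF7P3*, a pseudogene with several close copies, was at -1.50 in HCC1806 and -0.70 in HCC1395. It was looked up after the count was seen. Its other, brighter transcript cluster, at a mean signal of 5.94, changed by 0.12 (SE 0.13) in HCC1395.

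*PART1* itself was 0.28 (SE 0.18, unadjusted p 0.148) in HCC1806 against -0.66 in HCC1395. The difference was -0.94 (SE 0.28) with an unadjusted p of 0.00395 and an adjusted p of 0.646. *SLIT3* changed by 0.17 (SE 0.20) in HCC1806, so that the difference of the effects was -1.18 (SE 0.24) with an unadjusted p of 0.000168. *MIR3975* differed by 1.79 (SE 0.36), *MIR573* by 1.69 (SE 0.36), *PGLYRP3* by -1.18 (SE 0.25) and *TMCC3* by -0.97 (SE 0.21), each with an adjusted p of 0.459. *BICC1* changed by 0.46 (SE 0.33) in HCC1806. *SMAD2* and *CDKAL1*, small changes in HCC1395, were at -0.80 (SE 0.19) and -0.79 (SE 0.26) in HCC1806, and the differences of 0.53 (SE 0.22) and 0.54 (SE 0.30) had unadjusted p-values of 0.0281 and 0.0872.

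**Figure D5:**
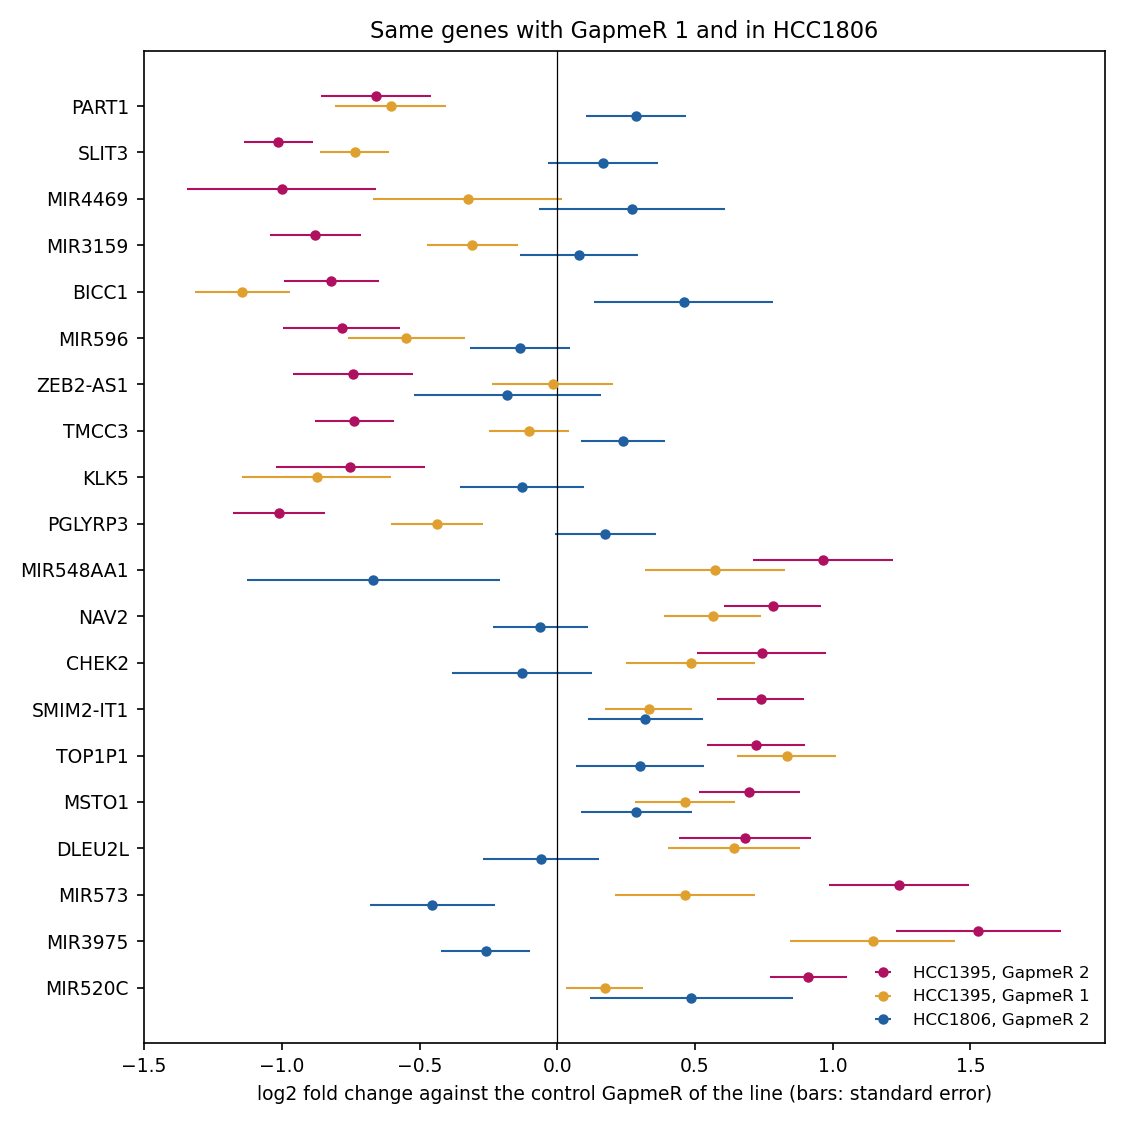
Log2 fold change against the control GapmeR of the same line, with bars for the standard error, for *PART1* and 19 genes past the threshold with GapmeR 2 in HCC1395. The GapmeR 2 and GapmeR 1 values of HCC1395 share their control arrays. *SLIT3* and *MIR3975* lie on the same side with both GapmeRs in HCC1395 and near 0 or on the other side in HCC1806.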

How the data were processed

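RNA of HCC1395 cells was measured 48 h after a control GapmeR, GapmeR 1 or GapmeR 2, with 3 arrays each. The authors deposited log2 signals. The submitters' processing notes name RMA and the Affymetrix Expression Console. The genome build and probe annotation are not given in the sources used here. Symbols came from the platform's table, updated through RefSeq, for 16098 of 53617 transcript clusters. All 18 arrays had a group. GapmeR 2 was compared with control by limma 3.58.1 (lmFit and eBayes, two-sided) in R 4.3.3 over the 9 HCC1395 arrays, and p-values were adjusted (Benjamini-Hochberg) across all 53617. GapmeR 1 was contrasted in the same fit, and the lines in a fit of 18 arrays. The number of arrays limits the precision, and the signals carry no count of molecules.

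The members, gene lists and tests were chosen with earlier results of these data known. Named genes are *PART1*, the QPCR panel, the 12 highest and 12 lowest past the threshold without overlap at or above the array median (7 and 7 qualified), 6 and 6 under it, up to 3 per list at an unadjusted p under 0.05, and the 5 smallest p of each further contrast among these genes. For a gene in a list the brightest transcript cluster was taken. Lists were only counted, including those of leukocyte, fibroblast and endothelial markers. The fit was tested on simulated data. Alternatives covered the arrays in the fit, variance model, test, normalization, a filter on dim transcript clusters, thresholds, the replicate number and each array left out. Python 3.11.15 with pandas 2.3.3 made the tables and matplotlib 3.10.9 the plots.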

Additional observations from a re-analysis of the deposited data

Results flagged for a closer look

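The effect of GapmeR 2 on *PART1*, the RNA it targets, had opposite signs in the lines, and the test of the difference had an unadjusted p under 0.05 but did not pass adjustment. The log2 fold change was -0.66 (SE 0.20) in HCC1395 and 0.28 (SE 0.18) in HCC1806, a difference of -0.94 (SE 0.28, unadjusted p 0.00395, adjusted p 0.646). The *PART1* signal of the HCC1806 control arrays, at 3.88, 3.69 and 3.94, was under the mean array median of HCC1395 of 4.08. By limma the HCC1806 change alone had an unadjusted p of 0.148, so a rise there is not shown. By QPCR the study reports lower *PART1* after its GapmeRs in both lines.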

How the results depend on the processing

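The counts past the threshold depended on the settings. Without the dimmest 40% of transcript clusters 11 were higher and 15 lower instead of 27 and 29. At 1.5-fold they were 47 and 63, and at 2-fold 4 and 4. Among protein-coding genes alone they were 8 and 12. With each of the 6 arrays left out in turn they were 32 to 53 and 37 to 59. The ANOVA of the methods on 6 arrays gave 19 higher and 19 lower, of which 19 and 18 are among the 27 and 29. It also gave 1 adjusted p under 0.05, 0.0403 for *CUEDC2*, whose near-equal arrays (6.62, 6.61 and 6.60 against 6.41, 6.41 and 6.41) differ by -0.20 and whose adjusted p by limma is 0.753. By limma no setting gave a transcript cluster with a symbol an adjusted p under 0.05. The smallest was 0.099 with an intensity trend and the largest minimum 0.721 without GapmeR 2 replicate 1. *PART1* was past 1.6-fold without control replicate 1 or GapmeR 2 replicate 2, and ranged from -0.83 to -0.53. GapmeR 2 against GapmeR 1 gave 6 higher and 9 lower without the dimmest 40%, instead of 16 and 15, and 25 to 34 and 23 to 34 with a GapmeR 2 array left out. The difference between the lines gave 57 and 91 without the dimmest 40% instead of 103 and 151. *ZHX2* ranged from -0.23 to 0.026, turning sign without GapmeR 2 replicate 1. The causes were not tested. For 53 named genes 747 of 786 values kept direction and side of the threshold, and 34 lost it. Only 28 of the 54 named genes were past the threshold, and the others had no call to lose. Of 306 values of list medians, 69 moved.

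Deviations from the group means correlated at -0.0025 to 0.1106 in the 9 pairs of same-numbered arrays, with 1 pair over 0.1. In the 18 pairs of arrays with different numbers they correlated at -0.099 to 0.0758. Whether same-numbered arrays had more in common than their number was not tested. With the replicate number as a block 26 were higher and 30 lower, *PART1* stayed at -0.66, GapmeR 2 against GapmeR 1 gave 15 and 16 and the difference between the lines 107 and 146. Dim signals near the lowest value of an array limit what a fold change can show, and a higher or lower level of a gene without signal over background cannot be read from these arrays.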

Other observations

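Among the 5968 transcript clusters with a symbol and a mean signal over 6, 15 (0.251%) had an unadjusted p under 0.005, 7 higher and 8 lower, beside 0.453% of all 16098. None passed the adjusted test, and this selection was made after the values were seen. The 15 were chosen by p on these same arrays, so little overlap among them follows from the choice and is no further support. Of all 16098, 13.5% had groups without overlap. On the lower side, besides *SLIT3*, *MIR3159* and *BICC1* described above, were 5 genes. *GPC6*, a cell surface heparan sulfate proteoglycan, had 9.63, 9.66 and 9.82 with the control and 8.92, 9.23 and 9.34 with GapmeR 2, a log2 fold change of -0.54 (SE 0.14). *RRAS*, a small GTPase of the RAS family, had 8.05, 8.03 and 8.43 against 7.62, 7.62 and 7.73 (-0.52, SE 0.14). *DYM*, a protein of the Golgi, had 9.41, 9.36 and 9.46 against 8.96, 9.09 and 8.99 (-0.40, SE 0.10). In all of these every GapmeR 2 array was below every control array, as it was for the kinase *DCLK2* (-0.52, SE 0.13) and for *C16orf74* (-0.40, SE 0.11).

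On the higher side were *LINC-PINT*, a long non-coding RNA induced by p53, and *KIF15*, a mitotic kinesin. *LINC-PINT* had 7.76, 7.85 and 8.07 against 8.35, 8.50 and 8.40 (0.52, SE 0.12), and its other transcript clusters, at mean signals of 6.93 and 7.29, changed by 0.253 and 0.255. *KIF15* had 8.51, 8.35 and 8.34 against 9.02, 8.87 and 8.72 (0.47, SE 0.13). *STC1*, a secreted glycoprotein hormone, had 7.99, 7.96 and 7.95 against 8.52, 8.46 and 8.25 (0.45, SE 0.11). The groups did not overlap in any of the 3, nor in the helicase gene *DHX57* (0.39, SE 0.10), *LOC100507412* (0.45, SE 0.11) and the miRNA genes *MIR570* (0.51, SE 0.14) and *MIR644A* (0.48, SE 0.12).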
